A study of Mus musculus with 10 samples.

Results

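The NRF2 pathway antioxidant genes were examined as 9 members: Nfe2l2, which encodes NRF2, its sensor gene Keap1, and the effector genes Nqo1, Hmox1, Gclc, Gclm, Txnrd1, Srxn1 and Gpx2. They were chosen by name from 19096 mouse genes that had a probe on the arrays, and where a gene had several probes the one brightest on average across the 10 arrays stood for it. All 9 members had a probe, and all 9 probes were well above background on every array. Nfe2l2 had 2 probes and Srxn1 had 3, while each of the other members had 1.

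Gene expression was measured on single-colour Agilent mouse arrays in 5 whole lungs of wild-type mice (WT) and in 5 lung squamous cell carcinomas (SCC). The labels give the strain of all mice as B6.129 and their age as 13 months. WT mice carried the floxed alleles of Lkb1 without Cre (Lkb1f/f), and SCC came from CCSPiCreLkb1f/f mice. In these mice Cre is made in airway epithelial cells, under the promoter of the club cell secretory protein, so that Lkb1, a kinase gene that suppresses tumours and is also named Stk11, is deleted there. Both groups therefore shared the floxed alleles, and they differed in Cre, in the tumour and in the tissue taken, which was whole lung in WT. These differences cannot be told apart. The labels do not say whether 2 tumours came from the same mouse, and p-values measure the spread between these samples.

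No probe was paired with Stk11 here, and the deletion was not checked. Squamous markers accorded with the SCC label: all 7 with a probe, among them the keratins Krt5 and Krt14 and the transcription factor Trp63, were higher in SCC and passed the test. Over the tested probes without missing values, pairs of WT arrays correlated at 0.986 to 0.993 and pairs of SCC arrays at 0.906 to 0.990. On SCC replicate 5, 90.2% of the probes were well above background, where the remaining arrays had 71.0% to 74.5%, and SCC replicate 2 had the lowest squamous level of its group. Xist, the RNA of the inactive X, was low and Y-linked transcripts were high on WT replicates 2 and 3 and on SCC replicate 2, while SCC replicate 5 had both Xist, at 13.75, and the Y-linked Ddx3y, at 8.34. Whether SCC replicate 5 holds RNA of more than 1 animal was not tested, and values without it are given where they differ. The arrays came from 3 slides, of which slide 1 carried WT replicates 1 to 4 and slide 3 carried SCC replicates 4 and 5. Only slide 2 held both groups, with a single WT array, replicate 5, beside SCC replicates 1, 2 and 3.

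NRF2 is a transcription factor that is held at a low level in unstressed cells by KEAP1, a sensor that delivers it to a CUL3 ubiquitin ligase. Oxidants and electrophiles modify cysteines of KEAP1, and NRF2 then accumulates, pairs with small MAF proteins and binds antioxidant response elements at genes for glutathione synthesis, thioredoxin reduction, quinone and haem breakdown and NADPH supply. In human squamous lung cancer the pathway is known for mutations of NRF2 and KEAP1 that keep NRF2 active, and mRNA levels alone do not report the amount or the location of NRF2 protein.

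The 250 bases upstream of the RefSeq start sites (build GRCm38.p6) were searched for the core letters of the antioxidant response element, TGACNNNGC, on both strands, to show where the members carry them. Windows were at hand for 7 members, with 3 alternative starts for Txnrd1, and none was at hand for Hmox1 and Gclc. The core was found for 3 of these 7 members, and in 3 of the 9 windows, against 10.16% of 32851 RefSeq windows of the same length. In Srxn1 a related form, TGAGTCAGC, was found, which was searched for after the first search and which 0.35% of all windows hold. On one strand the forms cannot match at the same position, because the fourth letter differs, and no window of a member held both. A match is a description of the letters and not evidence that NRF2 binds there. Each match is shown in capitals with 10 bases on each side, 5′ to 3′ on the strand of the gene; matches that start with GC lie on the other strand.
Nfe2l2 (chr2:75704885-75704913, minus strand): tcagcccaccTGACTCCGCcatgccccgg
Gclm (chr3:122245413-122245441, plus strand): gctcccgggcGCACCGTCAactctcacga
Txnrd1 (chr10:82859104-82859132, plus strand): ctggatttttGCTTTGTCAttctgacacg
Srxn1 (chr2:152105469-152105497, plus strand): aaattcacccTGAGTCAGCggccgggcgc

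The whole windows of Gpx2 and Srxn1 are shown because Gpx2 had the largest difference between SCC and WT of all members, and because Srxn1 alone held the second form of the motif. The window of Gpx2 held neither form of the motif, which says only that these letters are not in this window.
Gpx2 (chr12:76795555-76795804, minus strand): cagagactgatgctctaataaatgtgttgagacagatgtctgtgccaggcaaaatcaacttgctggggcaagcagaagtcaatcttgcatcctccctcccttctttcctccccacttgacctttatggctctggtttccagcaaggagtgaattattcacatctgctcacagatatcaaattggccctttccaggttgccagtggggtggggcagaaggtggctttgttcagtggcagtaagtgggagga
Srxn1 (chr2:152105274-152105523, plus strand): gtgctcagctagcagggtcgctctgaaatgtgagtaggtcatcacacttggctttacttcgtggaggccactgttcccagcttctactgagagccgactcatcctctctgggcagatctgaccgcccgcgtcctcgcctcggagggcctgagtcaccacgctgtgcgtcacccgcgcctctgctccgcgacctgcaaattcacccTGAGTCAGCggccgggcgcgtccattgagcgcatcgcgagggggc

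Between SCC and WT the members did not move as a block. Gpx2, Srxn1, Hmox1 and Txnrd1 rose in SCC, Nqo1 fell, and Nfe2l2, Keap1, Gclc and Gclm did not pass the test. Signals are given as log2 of the quantile-normalized fluorescence, differences are SCC minus WT in log2 units, and a gene passed at an adjusted p below 0.05 in limma over 30374 tested probes. A gene was called when it passed and also differed by at least 2-fold. By this rule 3 of the 9 members were called, Gpx2, Hmox1 and Srxn1, against 24.9% of the 15587 tested genes with 1 probe each (22.9% of all tested probes). All 3 were higher in SCC, where 11.6% of these genes were called higher, and no member was called lower, where 13.4% of the genes were. With the adjusted p alone 5 of 9 members passed, against 53.9% of all genes, and in the same 5 members the 5 SCC arrays and the 5 WT arrays did not overlap, against 41.4% of all genes. The members were chosen by name with earlier results known, and with 9 genes these counts are a description and no result about the members as a list. The median difference of the members was 0.32, beside -0.038 over all genes with 1 probe each. In whole tissue, a change in the number of cells that make an mRNA and a change in the mRNA of each cell cannot be told apart.

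**Figure D1:**
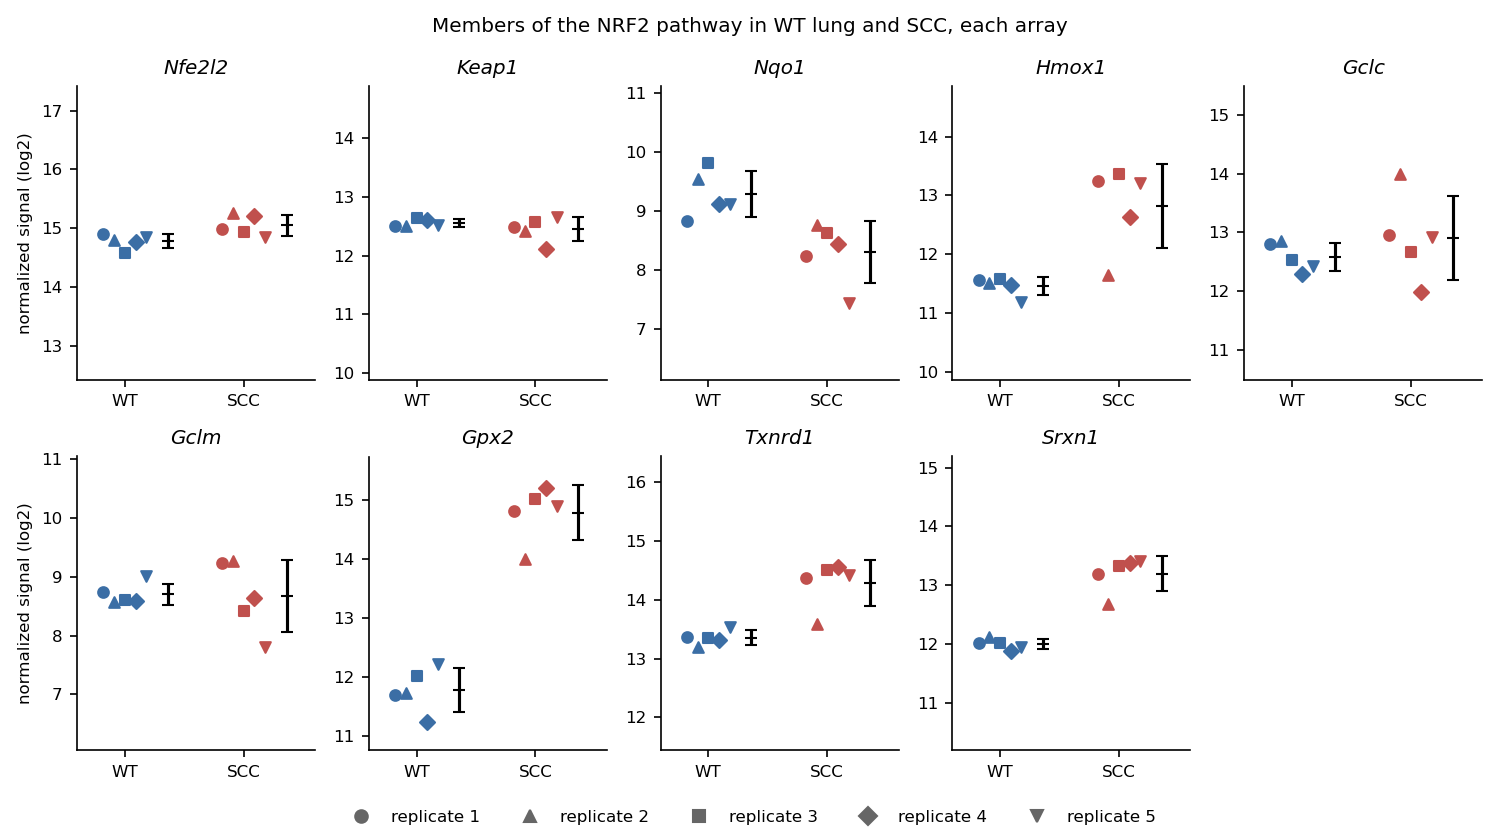
Normalized signal (log2) of the 9 members on each array, with WT in blue, SCC in red, 1 symbol for each replicate number and the mean with its SD as the bar to the right of each group. Every panel spans the same number of log2 units, and the groups are apart for Gpx2, Srxn1, Hmox1 and Txnrd1, which were higher in SCC, and for Nqo1, which was lower.

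The transcription factor gene itself was slightly higher in SCC, by an amount that did not pass. Nfe2l2 (probe A_51_P411271) read 14.90, 14.80, 14.58, 14.77 and 14.85 in WT replicates 1 to 5 and 14.99, 15.26, 14.93, 15.21 and 14.85 in SCC replicates 1 to 5. Of the SCC arrays 4 lay above every WT array, and SCC replicate 5 lay among the WT values. The difference was 0.27 (95% interval 0.022 to 0.51, limma adjusted p = 0.0676; exact two-sided permutation p = 0.0238), or 1.20-fold. The other probe of Nfe2l2 gave 0.27 as well (limma adjusted p = 0.0782). Nfe2l2 passed without SCC replicate 5 (0.32, limma adjusted p = 0.0315) and with each array scaled by its 75th percentile (0.39, limma adjusted p = 0.0092). This scaling also moved the median difference of all tested probes by 0.12. On slide 2 alone the difference was 0.21, and Nfe2l2 did not pass with slide as a fixed block.

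Keap1, the sensor that restrains NRF2, differed little. Keap1 (probe A_51_P438666) read 12.51, 12.50, 12.65, 12.61 and 12.53 in WT and 12.48, 12.42, 12.57, 12.12 and 12.65 in SCC. The groups overlapped, with SCC replicate 4 the lowest and SCC replicate 5 the highest of all 10 arrays. The difference was -0.11 (95% interval -0.35 to 0.13, limma adjusted p = 0.417). Leaving out SCC replicate 4 brought it to -0.028 and leaving out SCC replicate 5 to -0.16, the extremes of the fits without 1 array. On slide 2 alone it was -0.037, and Keap1 passed in no alternative that was run.

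The thioredoxin arm was higher in SCC in both of its members. Srxn1 encodes sulfiredoxin, which restores peroxiredoxins that peroxide has over-oxidised. Srxn1 (probe A_52_P297032) read 12.02, 12.12, 12.02, 11.88 and 11.95 in WT and 13.19, 12.69, 13.33, 13.37 and 13.42 in SCC. Every SCC array lay above every WT array, and SCC replicate 2 was the lowest of its group. Srxn1 rose by 1.20 (SE 0.14), or 2.29-fold (limma adjusted p = 0.000119; exact permutation p = 0.00794, the smallest that the 252 splits of 10 arrays allow). The dimmer probes of Srxn1 gave larger differences, 1.64 (SE 0.27) and 1.80 (SE 0.26), and both were called.

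Txnrd1 encodes the cytosolic thioredoxin reductase, a selenoprotein that uses NADPH to reduce thioredoxin. Txnrd1 (probe A_51_P320614) read 13.37, 13.19, 13.35, 13.31 and 13.55 in WT and 14.37, 13.59, 14.50, 14.56 and 14.42 in SCC. All SCC values exceeded all WT values, but SCC replicate 2 was only just above WT replicate 5 and far from the other SCC arrays. Txnrd1 rose by 0.93 (SE 0.18), or 1.91-fold (limma adjusted p = 0.0021), just under the 2-fold limit. Without SCC replicate 2 the difference was 1.11, and Txnrd1 was called. It was also called with 75th percentile scaling (1.02), without SCC replicates 2 and 5 (1.12) and with array weights (1.10), which gave these same 2 arrays little weight. On slide 2 alone, WT replicate 5 read 13.55 and SCC replicates 1 to 3 averaged 14.15, a difference of 0.61. With slide as a fixed block the difference was the same and did not pass (limma adjusted p = 0.249).

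Among the glutathione genes a single member rose, and it changed the most of all members. Gpx2 encodes a glutathione peroxidase of epithelial cells that reduces hydrogen peroxide and lipid hydroperoxides. Gpx2 (probe A_51_P486810) read 11.69, 11.73, 12.02, 11.24 and 12.22 in WT and 14.81, 14.00, 15.02, 15.21 and 14.90 in SCC. The groups were far apart, and even SCC replicate 2, the lowest of its group, lay well above the highest WT array. Gpx2 rose by 3.01 (SE 0.25), or 8.07-fold (limma adjusted p = 1.79e-05; exact permutation p = 0.00794). On slide 2 alone the difference was 2.40, and Gpx2 was called in every alternative that was run.

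Gclc and Gclm encode the catalytic and the modifier subunit of glutamate-cysteine ligase, the rate-limiting enzyme of glutathione synthesis. Gclc (probe A_51_P365019) read 12.81, 12.86, 12.53, 12.29 and 12.42 in WT and 12.95, 13.99, 12.67, 11.99 and 12.92 in SCC. The SCC arrays spread wider than the WT arrays and held both the highest value, on replicate 2, and the lowest, on replicate 4. The difference was 0.32 (95% interval -0.38 to 1.03, limma adjusted p = 0.413). It was 0.051 without SCC replicate 2 and 0.55 without SCC replicate 4, which bound the fits without 1 array, and was -0.045 without SCC replicates 2 and 5. With array weights it was 0.088, and on slide 2 alone it was 0.78. Gclc passed in no alternative that was run.

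Gclm (probe A_51_P320089) read 8.74, 8.58, 8.60, 8.59 and 9.01 in WT and 9.24, 9.27, 8.41, 8.63 and 7.81 in SCC. SCC replicates 1 and 2 lay above every WT array, and SCC replicates 3 and 5 lay below every WT array. The difference was -0.029 (95% interval -0.62 to 0.56, limma adjusted p = 0.937), with no stable sign over the alternatives, and 0.19 without SCC replicate 5. The SD of SCC was 3.35 times that of WT for Gclm and 2.95 times for Gclc, and the intervals reached up to 1.03 for Gclc and 0.56 for Gclm.

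The quinone and haem enzymes went opposite ways. Nqo1 encodes a quinone reductase that is among the best known NRF2 targets. Nqo1 (probe A_51_P424338) read 8.84, 9.55, 9.81, 9.12 and 9.11 in WT and 8.24, 8.77, 8.63, 8.43 and 7.44 in SCC. Every SCC array lay below every WT array, with SCC replicate 2 the nearest to WT and SCC replicate 5 the farthest from it. Nqo1 fell by 0.99 (SE 0.27) on the log2 scale (limma adjusted p = 0.0133; exact permutation p = 0.00794), just under the 2-fold limit. Without SCC replicate 5 Nqo1 fell by 0.77 (limma adjusted p = 0.0119). It was called in 6 of the 10 fits without 1 array, those without WT replicate 1, 4 or 5 or SCC replicate 2, 3 or 4, with a fall of up to 1.10, and also with array weights. On slide 2 the difference was -0.57, and with slide as a fixed block it did not pass (limma adjusted p = 0.463).

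Hmox1 encodes haem oxygenase 1, which opens haem into biliverdin, iron and carbon monoxide and is high in macrophages that clear red cells. Hmox1 (probe A_51_P263965) read 11.56, 11.51, 11.58, 11.47 and 11.19 in WT and 13.24, 11.65, 13.37, 12.64 and 13.21 in SCC. The groups did not overlap, but SCC replicate 2 was close to the WT arrays. Hmox1 rose by 1.36 (SE 0.30), or 2.57-fold (limma adjusted p = 0.0045), and by 1.66 without SCC replicate 2. On slide 2 the only WT array was replicate 5, the lowest of WT at 11.19, and the difference was 1.57. With slide as a fixed block Hmox1 did not pass (limma adjusted p = 0.126).

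Macrophage markers, given beside Hmox1, did not move as one. Of 7 markers 2 were called higher in SCC, Cd68 by 1.95 and Msr1 by 3.91, and none was called lower. Mrc1 passed higher by 0.65, Csf1r and Marco passed lower by less than 2-fold (-0.50 and -0.75), and Adgre1 and Chil3 did not pass. The summed signal of this list was 17.60 to 17.89 (log2) on the WT arrays and 17.51 to 17.96 on the SCC arrays, with SCC replicate 2 the lowest. The largest part of these sums came from Chil3, which read 17.32 to 17.49 in WT and 17.19 to 17.56 in SCC. The sums therefore say little of the dimmer markers Cd68 and Msr1. Within SCC, Cd68 was lowest on replicate 2, at 12.23 against 14.23 to 14.48 on the other arrays. Msr1 was lowest there too, at 9.04 against 11.95 to 12.30. Adgre1, Csf1r and Mrc1 were also lowest there within SCC, while Marco and Chil3 were not. Of 6 neutrophil markers 3 were called higher in SCC, S100a8, Csf3r and Cxcr2, while S100a9, Retnlg and Mmp9 did not pass. Their sums were 14.74 to 15.55 in WT, 14.05 in SCC replicate 2 and 16.73 to 16.88 on the other SCC arrays. The largest part came from S100a9, at 14.37 to 15.21 in WT and 13.55 to 16.45 in SCC. For this sum SCC replicate 2 lay below every WT array. For Hmox1 it was the lowest SCC array but lay above every WT array. Erythroid markers were called lower in SCC for 3 of 3 genes, with sums of 16.01 to 17.31 in WT and 13.81 to 16.13 in SCC, the highest again on replicate 2. The part of these cells in the difference of Hmox1 was not tested.

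**Figure D2:**
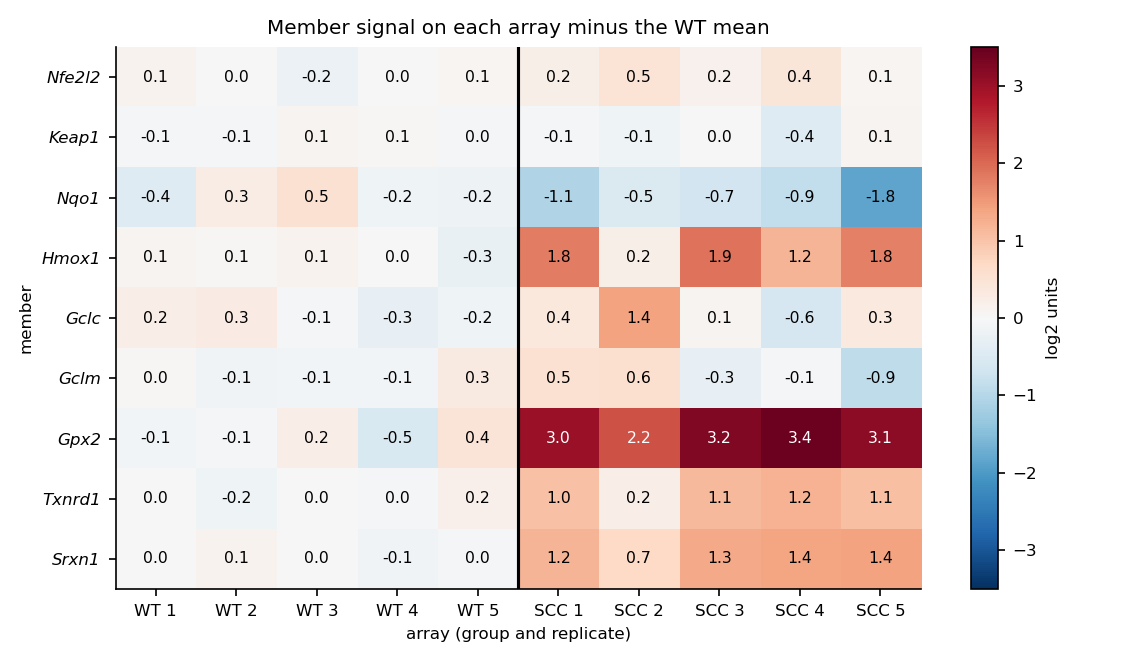
Signal of each member on each array minus the WT mean of that member, in log2 units, with arrays in columns by group and replicate and red for higher and blue for lower. Gpx2, Srxn1 and Txnrd1 are red on all SCC arrays and palest on SCC replicate 2, where Hmox1 is almost at the WT mean and Gclc is highest.

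SCC replicate 2 stood apart within the pathway. It was the lowest SCC array for all 4 members that rose, and the highest SCC array for 4 others, Nfe2l2, Nqo1, Gclc and Gclm. Beside these values, the summed signal of the squamous markers was 16.22 (log2) on SCC replicate 2, where the rest of SCC gave 18.49 to 18.77 and WT gave 7.62 to 8.19. Endothelial markers were called lower for 6 of 6 genes, with sums of 17.42 to 17.85 in WT, 16.11 on SCC replicate 2 and 15.06 to 15.41 on the other SCC arrays. Among the squamous markers, Krt6a, Dsg3 and Sprr1b were not well above background on any WT array. The part of these cell types in the members' differences was not tested.

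The lists of other lung cells differed in part. Alveolar type 2 markers were called for 0 of 7 genes, but Sftpb, Sftpa1 and Lamp3 passed lower by less than 2-fold (-0.86, -0.74 and -0.81). Their sums were 19.57 to 19.65 in WT and 19.28 to 19.58 in SCC. The largest part came from Sftpc, which read 18.80 on all 5 WT arrays and on SCC replicates 1 and 2. Quantile normalization gives probes of equal rank the same value, so that these equal readings show rank and not signal. The sums therefore say little of a difference in type 2 signal. Type 1 markers were called lower for 4 of 5 genes, among them Ager by -2.21 and Clic5 by -2.50, while Aqp5 passed higher by 0.64. Their sums were 17.84 to 18.02 in WT and 16.99 to 17.70 in SCC, where Aqp5, at 16.09 to 17.15, gave the largest part. Of the club cell markers 1 was called higher, Scgb3a1, and 2 lower of 4, with sums of 19.25 to 19.72 in WT and 18.07 to 19.60 in SCC. For ciliated cells 1 of 5 markers was called lower and Tubb4b passed higher by 0.51, with sums of 12.85 to 14.08 in WT and 12.42 to 13.79 in SCC. For fibroblasts 3 of 6 were called lower, while Col1a1 and Col3a1 passed higher by 0.66 and 0.53 without overlap of the groups, with sums of 16.67 to 16.88 in WT and 16.27 to 16.72 in SCC. For cardiac muscle 4 of 5 were called lower, with sums of 12.86 to 16.26 in WT and 10.80 to 12.74 in SCC.

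**Figure D3:**
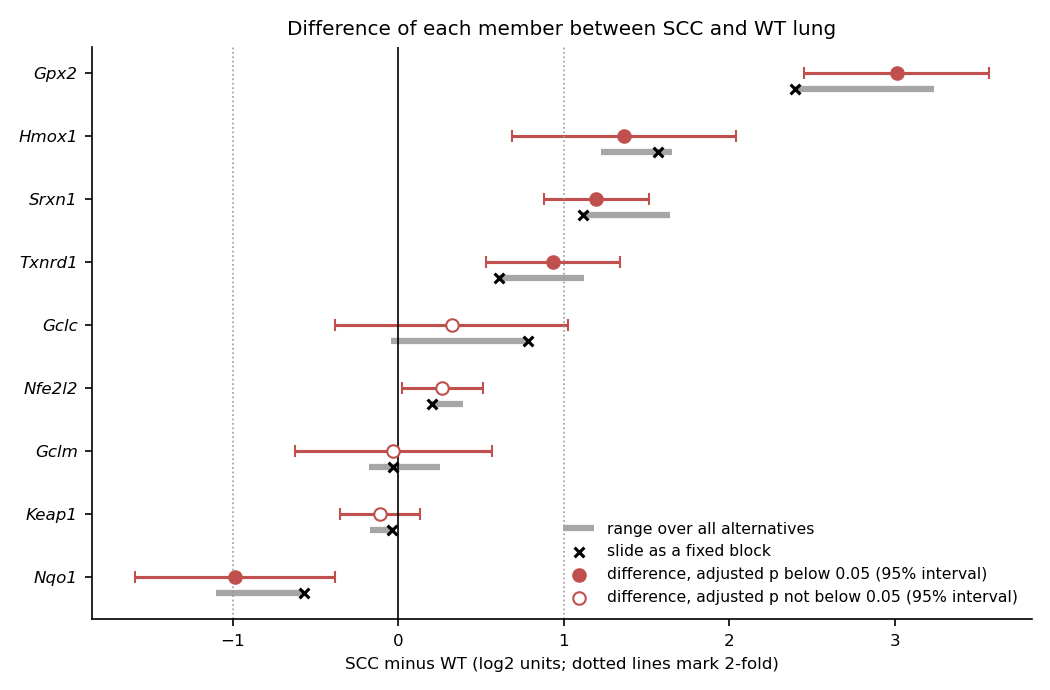
Difference between SCC and WT for each member in log2 units, as points with 95% intervals, filled where the adjusted p was below 0.05. Grey bars span the differences over all alternatives that were run, and crosses mark the fit with slide as a fixed block, where Hmox1, Txnrd1 and Nqo1 no longer passed.

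A further 83 genes of the pathway were listed by role, of which 80 had a probe and 79 were tested. Akr1c13, Cbr1 and Ugt1a6a had no probe here, and the pump gene Abcc2 was too dim to test. Of the 79 genes, 16 were called higher and 11 lower in SCC, 27 in all, where 24.9% of all genes were called with 1 probe a gene. With the adjusted p alone 60 passed, against 53.9% of all genes, and the median difference over the 79 was 0.30. Some of these enzymes, the glutathione S-transferases above all, belong to families of similar sequence, and whether their probes bind related mRNAs was not tested. With slide as a fixed block, which rests on slide 2, 13 of the 79 genes were called higher and 2 lower, the latter Cat and Txnrd3.

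Of 10 regulators and partners of NRF2, 1 was called higher and 1 lower. Nfe2l3, a relative of NRF2, was between 6.21 and 6.79 in WT (median 6.66) and between 8.91 and 9.56 in SCC (median 9.16), and it rose by 2.67 (SE 0.16; limma adjusted p = 3.39e-06). Its other probe gave 1.52. Nfe2l1, also on this list, fell by 0.69 without overlap of the groups (limma adjusted p = 0.000224), below 2-fold. Bach2, a repressor that competes for MAF partners, read 10.67 to 11.15 in WT and 9.11 to 10.40 in SCC and fell by 1.32 (SE 0.22), but did not pass with slide as a fixed block (-1.13, limma adjusted p = 0.120). Bach1 differed by -0.094 and did not pass (limma adjusted p = 0.613). Of the small MAF genes, Maff rose by 0.85 and Mafg by 0.43, and Mafk fell by 0.55. The ubiquitin ligase genes Cul3 and Rbx1 and the KEAP1-binding receptor gene Sqstm1 differed by 0.11, -0.032 and -0.16 and did not pass.

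Of 9 genes of glutathione synthesis, recycling and peroxidases, 3 were called higher and 1 lower. Slc7a11, the cystine importer that feeds glutathione synthesis, was 4.04 to 5.13 in WT, with a lowest value of 6.39 and a median of 8.14 in SCC, and rose by 3.32 (SE 0.43), with its WT signal well above background on 4 of 5 arrays. Its difference was 1.46 with normexp background correction, under which it was still called. Its other probes were not well above background on any WT array and give lower bounds, at least 5.28-fold (limma adjusted p = 0.000651) and at least 3.63-fold (limma adjusted p = 0.00142), taken against the dimmest signal that was well above background on each WT array or the probe's own where higher. Glrx, the gene of glutaredoxin, was 11.19 to 11.40 in WT and 12.41 to 14.70 in SCC and rose by 2.64 (SE 0.37), but did not pass with slide as a fixed block (2.51, limma adjusted p = 0.0547). Gsr, glutathione reductase, was the other called gene and rose by 1.09. Gpx3, the secreted glutathione peroxidase of plasma, was 14.51 to 14.96 in WT and 12.17 to 13.98 in SCC and fell by 2.13 (SE 0.32), but did not pass with slide as a fixed block (-1.88, limma adjusted p = 0.0859). Its difference was opposite in sign to that of Gpx2, while Gpx1 rose by 0.42 and Gpx4 fell by 0.39.

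The 14 glutathione S-transferases, which join glutathione to electrophiles, were divided, with 4 called higher and 4 lower and a median of -0.33. Gsto1 was 13.89 to 14.42 in WT and 17.02 to 17.75 in SCC and rose by 3.35 (SE 0.16; limma adjusted p = 8.63e-07). Gsta4, whose enzyme removes the lipid aldehyde hydroxynonenal, was 10.43 to 10.94 in WT and 13.63 to 14.01 in SCC and rose by 3.08 (SE 0.12; limma adjusted p = 2.14e-07). Gsta3 was 15.14 to 15.71 in WT and 11.98 to 14.81 in SCC and fell by 2.30 (SE 0.43). Gstm1 fell by 1.27 (SE 0.24), with 4 WT values because the spots on WT replicate 3 were left out. The other called genes were Gsta2 and Mgst2, which were higher by 2.25 and 2.03, and Gstm2 and Gstm3, which were lower (-1.25 and -1.26). The groups overlapped for Gsta2, where SCC replicate 2 read 9.42 and WT replicate 5 read 9.75. With slide as a fixed block all 4 of the lower genes, Gsta3, Gstm1, Gstm2 and Gstm3, kept their sign and did not pass (limma adjusted p = 0.0987, 0.129, 0.180 and 0.129), and nor did Gsta2 (limma adjusted p = 0.361).

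Of 12 genes of the thioredoxin system, 1 was called higher and 2 lower. Sesn2, a stress-induced gene of the sestrin family, rose by 1.28 (SE 0.12), with 10.09 to 10.24 in WT and 11.23 to 11.80 in SCC. Prdx6, a peroxiredoxin with phospholipase activity that is abundant in lung, fell by 1.61 (SE 0.24), with 16.66 to 17.01 in WT and 14.65 to 16.16 in SCC, but did not pass with slide as a fixed block (-1.70, limma adjusted p = 0.0588). Txnrd3, a relative of Txnrd1 known from testis, fell by 1.01 (SE 0.15) and lay at the 2-fold limit, with differences of -1.15 to -0.95 without 1 array and a call in 5 of these 10 fits, lost without WT replicate 1 or 5 or SCC replicate 1, 3 or 4. With normexp background correction it was -0.93 and not called. Prdx1, Prdx2 and Prdx5 rose by 0.37, 0.28 and 0.78, all below 2-fold, and Txn1, the cytosolic thioredoxin, differed by 0.65 and did not pass (limma adjusted p = 0.0576).

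NADPH is consumed by both the glutathione and the thioredoxin systems. All 7 listed genes of NADPH supply had positive differences, 6 passed and 3 were called. Over all genes with 1 probe each, 7422 of 15587 had positive differences and 8401 passed. Me1, malic enzyme, was 11.40 to 11.78 in WT and 12.75 to 13.79 in SCC and rose by 1.63 (SE 0.19). Idh1, cytosolic isocitrate dehydrogenase, was 9.32 to 9.42 in WT and 10.14 to 10.93 in SCC and rose by 1.06 (SE 0.14), or by 0.94 without SCC replicate 2, 0.91 after normexp background correction and 0.89 with array quality weights, all under 2-fold. Pgd, which encodes an NADPH-making dehydrogenase of the pentose phosphate pathway, rose by 1.02 and lay at the 2-fold limit. It was not called without WT replicate 5 or without SCC replicate 1, 3 or 4, where it rose by 0.94 to 1.00, and did not pass with slide as a fixed block (1.03, limma adjusted p = 0.0606). The genes Pgls, Tkt and Taldo1 of the same pathway rose by 0.38, 0.33 and 0.43.

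Of 11 tested genes of quinone, carbonyl and drug metabolism, 3 were called higher and 0 lower. Akr1b8, an aldo-keto reductase, was 13.67 to 13.92 in WT and 15.42 to 15.75 in SCC and rose by 1.73 (SE 0.094; limma adjusted p = 2.04e-06). Ptgr1, a reductase of prostaglandins and alkenals, was 13.15 to 13.41 in WT and 14.18 to 14.63 in SCC and rose by 1.14 (SE 0.12), and Ugdh, which makes the sugar donor of glucuronidation, rose by 1.06. Nqo2, the relative of Nqo1, rose by 0.33, so that the 2 quinone reductase genes had opposite signs. Ephx1, microsomal epoxide hydrolase, fell by 0.92 and was not called.

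No gene of haem and iron handling was called of 7 tested, although 6 passed by the adjusted p. Blvra and Blvrb, whose products reduce the biliverdin that haem oxygenase makes, rose by 0.52 and 0.76. The ferritin chains differed in sign, as Ftl1 rose by 0.65 and Fth1 fell by 0.37. Hmox2, the constitutive haem oxygenase, rose by 0.30. Among 5 tested export pumps 1 was called, Abcc4, which rose by 1.26 (SE 0.12).

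Genes that remove superoxide and peroxide and are not classed as NRF2 targets here were listed beside the pathway. Of these 4 genes 3 were called lower and none higher. Cat, catalase, was 14.37 to 14.62 in WT and 12.66 to 13.54 in SCC and fell by 1.62 (SE 0.17; limma adjusted p = 6.34e-05). Sod3, the extracellular superoxide dismutase, fell by 1.12 (SE 0.21), or by 0.98 without SCC replicate 5, 0.97 after 75th percentile scaling, 0.76 after normexp background correction and 0.64 with slide as a fixed block (limma adjusted p = 0.233), all under 2-fold. Sod1, the cytosolic form, fell by 1.12, or by 0.92 after 75th percentile scaling and by 1.00 (just under 2-fold) without SCC replicate 3, and did not pass with slide as a fixed block (-1.17, limma adjusted p = 0.124). Of the 3 genes called lower, only Cat was called in every alternative that was run. Sod2, the mitochondrial form, differed by 0.061 and did not pass.

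**Figure D4:**
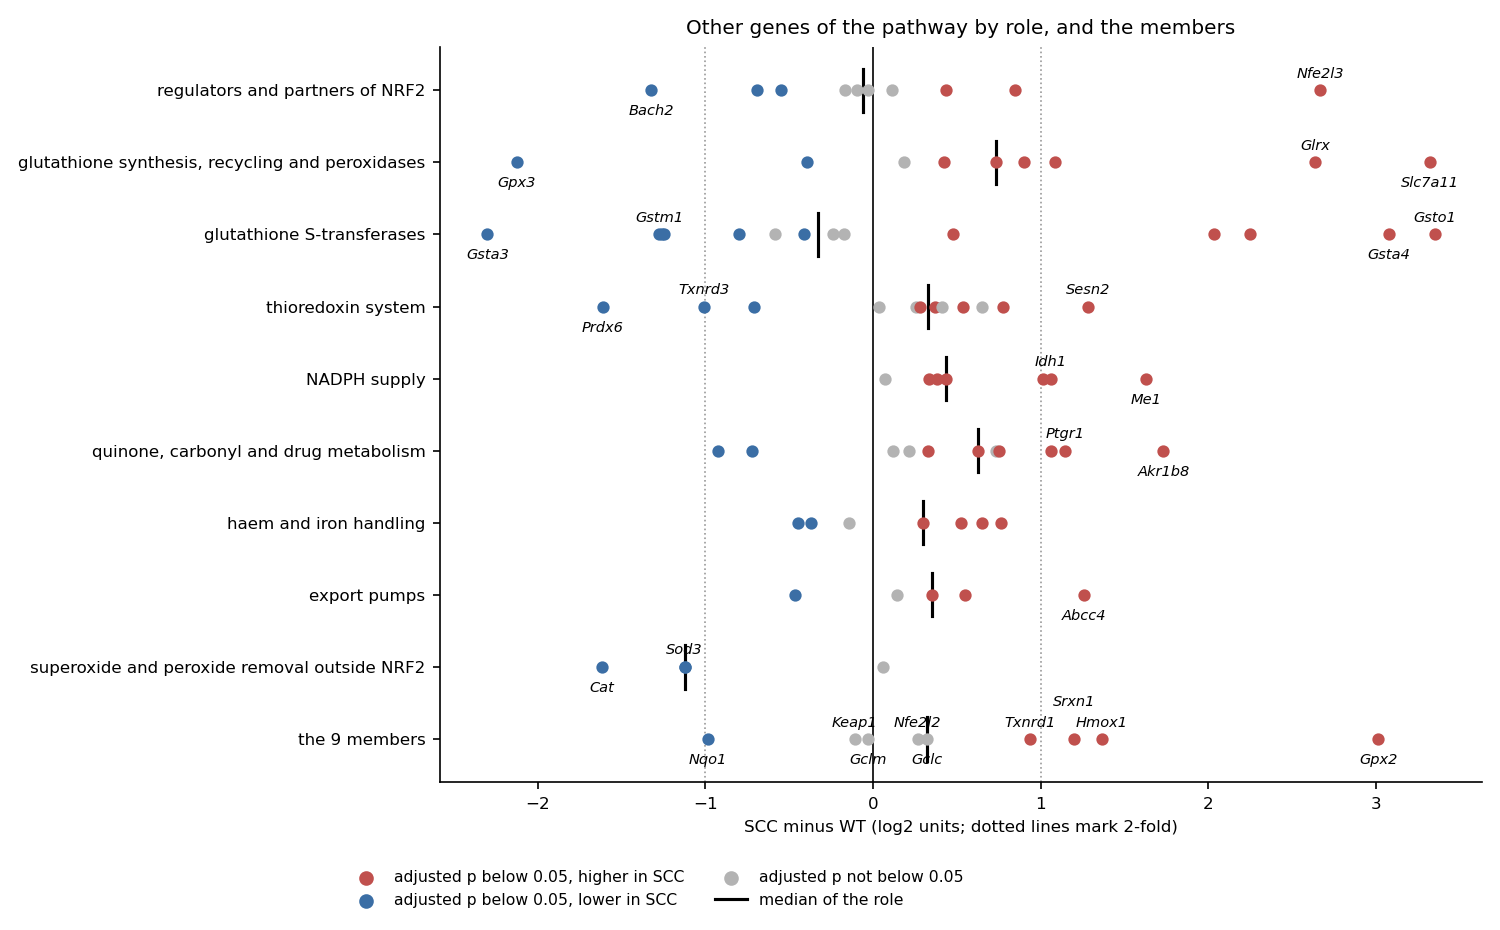
Difference between SCC and WT in log2 units for the 79 tested genes of the pathway, in rows by role, with the 9 members in the lowest row; each point is a gene, coloured by direction where the adjusted p was below 0.05, and black bars are row medians. The S-transferases and the peroxidases reach to both sides, the NADPH row is positive throughout, and 3 of the 4 genes in the row of superoxide and peroxide removal are negative.

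The profiles most like those of Gpx2 and Nfe2l2 over the 10 arrays were sought by the root mean square distance between profiles centred on their own means, with 1 probe a gene. For Gpx2 the nearest were Plekha7 at 0.18, Fam83h at 0.23 and Ovol1 at 0.24, which were higher in SCC by 3.01, 2.94 and 3.32. For Nfe2l2 the nearest were Med25 at 0.065, Sptlc1 at 0.079 and Eef1akmt1 at 0.085, with differences of 0.24, 0.21 and 0.23, none of which passed. All points of these distances share the arrays, so that they are a description. Because the profiles were not scaled, a near gene must have nearly the same difference between SCC and WT. The differences of the nearest genes were thus set by the choice and are no further result.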

How the data were processed

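RNA of 5 WT lungs and 5 SCC had been labelled with Cy3 and scanned, and signals were extracted with Agilent Feature Extraction 12 per the labels. What the authors deposited per array is the processed signal intensity of each spot, background-subtracted per the file headers. The authors also deposited a table of log2 values; their methods name quantile normalization and log2. Here, log2 processed intensities of 43379 non-control spots, without spots that the scanner software had marked as outliers, were averaged to 41174 probes and quantile-normalized. Probes well above background on at least 4 of 5 arrays of a group were tested (30374), with limma 3.58.1 in R 4.3.3, two-sided, and Benjamini-Hochberg adjustment. Genes were named from RefSeq accessions through a table of GRCm38.p6, which covered 68.5% of probes; the array design uses another build, so probes carry no coordinates. A call needed an adjusted p below 0.05 and a 2-fold difference. Intervals are 95% from limma. No probe was saturated. The number of arrays limits the precision.

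The members, the lists of pathway and marker genes and the alternatives were chosen with earlier results of these data known. All 9 members are named; of the other pathway genes, up to 2 called in each direction per role are given with full values, and further genes were chosen to be named after their values were seen. Marker sums add linear signals of the list; 1 missing value was set to its group mean. Single members were also tested by exact permutation over 252 splits. Alternatives were 75th percentile scaling, normexp (offset 50, on median signals), the deposited log2 table, other filters, array weights, slide or replicate number as a block, left-out arrays, a plain test without moderation and the next brightest probe. The array weights were 0.14 for SCC replicate 2, 0.13 for SCC replicate 5 and 0.95 to 2.93 for the other arrays. SCC replicates 2 and 5 therefore counted little in the weighted fit. The limma step was tested on simulated data with known changes. The values of 1 further effector gene and of 1 marker are not reported here. Protein sequences were not analysed here.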

Additional observations from a re-analysis of the deposited data

Results flagged for a closer look

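Some arrays lay far from the rest of their group for a named gene, judged by the gap to the nearest array as a share of the whole range of the group. Of 56 groups of values examined, 7 passed the 95% limit of this measure, where chance gives about 1 in 20, or 2.8; 5 of the 7 were SCC replicate 2.

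Among the members, Txnrd1 on SCC replicate 2 had a gap of 0.801 of the range, at 13.59 against 14.37 to 14.56 on the other SCC arrays. Hmox1 on WT replicate 5 had a gap of 0.719, at 11.19 against 11.47 to 11.58 on the other WT arrays.

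For other genes of the pathway, SCC replicate 2 was high for Gpx3 (gap 0.768, at 13.98), Txnrd3 (gap 0.739, at 11.45) and Cat (gap 0.860, at 13.54), and low for Gsto1 (gap 0.735, at 17.02). In each of these 4 genes it was the SCC array nearest to WT. Gstm1 on WT replicate 4 had a gap of 0.927 among 4 values, at 17.09 against 17.27 to 17.28.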

How the results depend on the processing

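Gpx2 and Srxn1 were called under all alternatives, and Hmox1 under all except slide as a fixed block. The 3 called members became 5 with array weights and 5 with the adjusted p alone; leaving out 1 array gave 3 to 5, with 5 without SCC replicate 2. The genes gained were Txnrd1 and Nqo1, which lie near the 2-fold limit: both with array weights and without SCC replicate 2, Txnrd1 alone with 75th percentile scaling and without SCC replicates 2 and 5, and Nqo1 alone without WT replicate 1, 4 or 5 or SCC replicate 3 or 4. All called probes numbered 6954 (3014 higher, 3940 lower), 3969 with normexp (1909 higher, 2060 lower), 2988 with slide as a fixed block (1402 higher, 1586 lower), 14878 with the adjusted p alone, and 6385 to 8135 without 1 array. With 75th percentile scaling, which moved the median difference by 0.12, they were 3504 higher and 3080 lower. The 27 other pathway genes became 15 with slide as a fixed block (13 higher, 2 lower), 60 with the adjusted p alone, and 24 to 29 without 1 array.

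With slide as a fixed block, which rests on the 4 arrays of slide 2, Hmox1, Txnrd1, Nqo1, Bach2, Glrx, Gpx3, Gsta2, Gsta3, Gstm1, Gstm2, Gstm3, Pgd, Prdx6, Sod1 and Sod3 kept their sign and did not pass. Slide as a random block had a correlation of -0.017 and changed no call of a member. Gclc turned to -0.045 without SCC replicates 2 and 5. Gclm turned to 0.088 with 75th percentile scaling, 0.034 with normexp, 0.25 with array weights and 0.061 without SCC replicates 2 and 5, and ranged from -0.18 to 0.19 without 1 array (0.047 without WT replicate 5, 0.036 without SCC replicate 3, 0.19 without SCC replicate 5). Nfe2l2 also passed with normexp (0.29), array weights (0.28) and without SCC replicates 2 and 5 (0.26). The cause was not tested.

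The replicate numbers do not pair the samples: deviations of arrays with the same number correlated at -0.10 to 0.0087. With the replicate block 3 members, 27 other pathway genes and 6571 probes were called.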
